A study of Homo sapiens with 46 samples.

Results

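Cytoplasmic RNA of ectoderm cells was compared with cytoplasmic RNA of the human pluripotent stem cells (hPSC) from which they were derived. The sample titles gave the members: 3 ectoderm cytoplasm libraries and 3 hPSC cytoplasm libraries, 6 of the 46 libraries in the series. The transcripts of each cell type had been assembled and quantified separately, so the rows of each table were summed per Ensembl gene and the tables were joined. There were 17713 such genes for ectoderm and 15115 for hPSC, and 13580 were in both. A further 4133 genes had a row in the ectoderm table only and 1535 in the hPSC table only, and for these a level is given in one cell type and no test.

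Both groups were cells of the H1 line, an established line of human embryonic stem cells, and the labels name no modified allele, so the comparison describes a single line. The hPSC were kept on Matrigel in mTeSR1. For ectoderm, the medium was replaced by DMEM/F12 with 15% KOSR (a serum replacement), non-essential amino acids, beta-mercaptoethanol, 2 µM A83-01, 2 µM PNU-74654 and 2 µM Dorsomorphin, with collection 5 days later. A83-01 blocks the receptors through which nodal, activin and TGF-beta act, PNU-74654 interferes with beta-catenin binding to its transcription factor partners, and dorsomorphin blocks BMP receptors and also AMPK. The whole change of medium therefore separates the groups, and the part of any one agent cannot be told apart from the rest. Cytoplasm was the supernatant of a detergent lysate, and nuclear libraries came from the pellet. Which values were nuclear was inferred, because their tag does not spell out nucleus and the other tags name the other fractions. In both groups the lysis buffer held alpha-amanitin, a blocker of RNA polymerase II. Endoderm of the same line, made with WNT3A and activin A, and mesoderm, made with VEGF, BMP4, bFGF and activin A that was later withdrawn, are used only to place the ectoderm values. The labels number 3 libraries a group and do not say that they were separate cultures, so p-values measure the spread between these libraries, which may be technical.

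Pluripotent stem cells are held in their state by the transcription factors POU5F1, SOX2 and NANOG, together with FGF and nodal signals from the medium and from the cells themselves. When nodal and BMP signalling are both blocked, such cells take a neural course, losing POU5F1 and NANOG, keeping SOX2, and turning on regulators of the forebrain and eye field. During that change cells also rebuild their surface and matrix, their metabolism and the enzymes that methylate their DNA.

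The ectoderm libraries held 14265168, 18022271 and 18474308 counts, and the hPSC libraries held 8329295, 14962624 and 15073269. Levels are given as CPM, a count relative to the library size after scaling for composition, which compares a gene between libraries but not genes of different length with each other. Changes are log2 values of ectoderm over hPSC with their standard error (SE), and adjusted p-values are from edgeR's quasi-likelihood test with Benjamini-Hochberg adjustment over all 13100 genes that passed a filter on low counts. A gene is said to have risen or fallen where the adjusted p was below 0.05. Of the 13100 genes, 9593 (73.2%) were called: 4806 (36.7%) rose and 4787 (36.5%) fell, and 5569 (42.5%) were called with a change of at least 2-fold. The ranges of the 2 groups did not overlap for 10025 genes (76.5%). With most genes called, counts of gene groups are read against these shares. The 3 ectoderm values lay above or below the 3 hPSC values for every gene named below as having risen or fallen, unless the text says otherwise.

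A gradient with transcript length ran through the whole comparison. Among protein coding genes the median log2 change was -0.74 in the tenth with the shortest transcripts (up to 1678 bases) and 0.76 in the tenth with the longest (from 7687 bases). It was narrower over transcripts with the same identifier in both tables (-0.53 to 0.47), a fit in which 6507 of 10362 genes (62.8%) were called, 31.3% higher and 31.5% lower. In the nucleus the median was 0.20 in the tenth with the shortest transcripts and lay between -0.13 and 0.054 in the others, with no such gradient. Values from a fit corrected for transcript length and GC content are also given below. That fit takes each library's trend with length and GC content out of the values. Any difference between the cell types that follows length or GC content is therefore removed with it. In the shallowest library, hPSC replicate 1, deviations from the group mean went down with transcript length (Spearman rho -0.52). Those of the other 2 hPSC libraries went up (0.31 and 0.55). Ectoderm libraries diverged too, with rho 0.28 in replicate 1 and -0.37 in replicate 3. With GC content they spread more widely (-0.65, 0.55 and 0.22) than the hPSC libraries (0.086, -0.063 and -0.074). Some results that hPSC replicate 1 decides are also given without it.

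**Figure D1:**
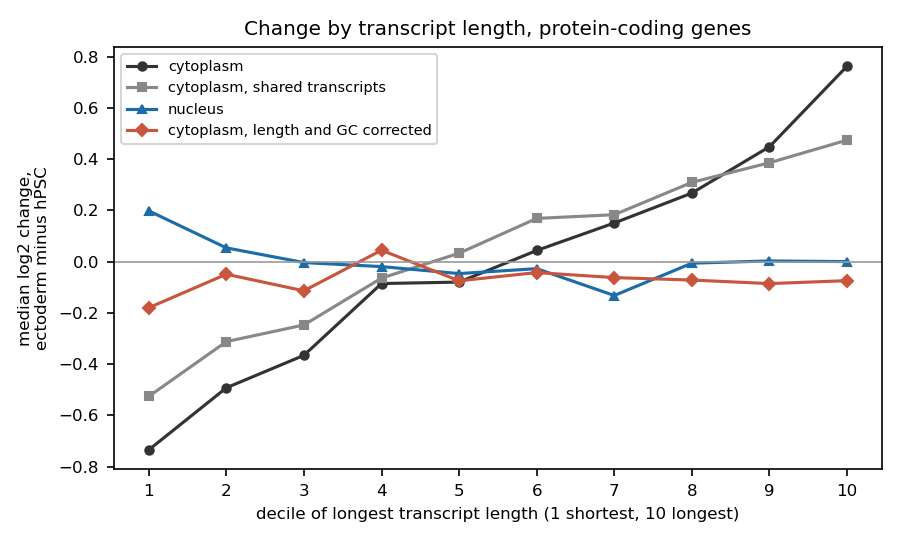
Median log2 change of ectoderm over hPSC (vertical axis) in 10 equal bins of protein coding genes ordered by the length of their longest transcript (horizontal axis), for the comparisons named in the legend. The cytoplasm line climbs from -0.74 to 0.76. The corrected line stays between -0.18 and 0.04 by construction, because the correction takes the length trend out.

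Most pluripotency genes fell in the ectoderm cytoplasm, several of them to near the limit of detection, while SOX2 rose. Of 20 pluripotency genes tested, 15 fell and 1 rose, with a median log2 change of -3.15 against 0.0045 over all genes. In bulk samples a smaller share of expressing cells and less RNA per cell cannot be told apart. POU5F1, the central pluripotency factor (ENSG00000204531, chromosome 6, 31164337 to 31180731, GRCh38), stood at 4012, 3045 and 2825 CPM in hPSC and at 5.08, 6.52 and 7.69 CPM in ectoderm. Its log2 change was -8.99 (SE 0.27, edgeR adjusted p = 1.0e-08), and the lowest hPSC library lay far above the highest ectoderm library. TDGF1, the co-receptor of nodal, had 407, 527 and 515 CPM in hPSC and 0.0687, 0.0621 and 0 CPM in ectoderm, which is 2 counts in all. The mean hPSC level was 11838 times the level that these 2 counts give over the 3 ectoderm libraries pooled, with a 95% counting interval from 3277 to 97749. FOXH1, the DNA-binding partner of nodal's SMAD proteins, fell by 5.93 on the log2 scale (SE 0.19), and PRDM14, a repressor of differentiation genes, fell by 6.65 (SE 0.21). NANOG had a row in the hPSC table only, at 63.5, 98.3 and 95.7 CPM.

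SOX2, which pluripotent and neural cells share, went against the rest of the list. It stood at 221, 205 and 209 CPM in hPSC and at 418, 363 and 440 CPM in ectoderm (log2 change 0.94, SE 0.12, edgeR adjusted p = 5.0e-05), so every ectoderm library was above every hPSC library. LIN28A, a repressor of let-7 maturation, stood at 1231, 2596 and 2578 CPM in hPSC and 1861, 1712 and 1897 CPM in ectoderm and was not called (log2 change -0.23, SE 0.26, edgeR adjusted p = 0.45). Without hPSC replicate 1, its lowest library, it was called at -0.50. LIN28B, SALL4 and KLF4 were not called either, with log2 changes of 0.26, 0.11 and -0.32. The value of LIN28B turned on the processing, since it was called at 2.59 over shared transcripts and at -0.35 after correction for length and GC content. Between these extremes lay DPPA4 (-2.30, SE 0.12), the telomere protein gene TERF1 (-3.41, SE 0.12) and the RNA-binding protein gene L1TD1 (-3.78, SE 0.13), all of which fell without reaching the floor of detection.

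The long noncoding RNAs of pluripotent cells fell as steeply. ESRG, transcribed from an endogenous retroviral element, stood at 2026, 1813 and 1952 CPM in hPSC and at 9.68, 10.1 and 10.9 CPM in ectoderm (log2 change -7.56, SE 0.17, edgeR adjusted p = 4.7e-09). FOXD3-AS1 and LNCPRESS1 had no count in any ectoderm library, and against a floor of 3 counts per library they were at least 1040-fold and at least 526-fold lower. LINC00678 fell by 6.13 (SE 0.16). Other steep falls were those of the chemokine gene CXCL12, the receptor gene TNFRSF8 and the metallothionein genes MT1G and MT1H, which code for metal-binding proteins.

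Most of the neuroectoderm regulators that could be tested rose. Of 11 neuroectoderm regulators tested, 7 rose and 1 fell (median 2.36), and 16 more had a row in the ectoderm table only. FEZF1, a forebrain transcription repressor (ENSG00000128610), stood at 7.26, 6.14 and 5.42 CPM in hPSC and at 372, 410 and 377 CPM in ectoderm (log2 change 5.96, SE 0.15, edgeR adjusted p = 5.4e-09). All 3 ectoderm libraries exceeded every hPSC library by a wide margin. ZBTB16, a zinc finger protein of early neural progenitors, rose by 7.13 (SE 0.31) from levels under 0.4 CPM. OTX2, which patterns the forebrain and midbrain and is already present in pluripotent cells, went from 65.2, 59.7 and 68.5 CPM to 175, 179 and 172 CPM (log2 change 1.44, SE 0.11). OTX1, SOX21, SOX11 and POU3F1 rose by 3.91, 3.54, 2.83 and 2.36. ZIC5 fell by 0.69, and ZIC2, SOX3 and HESX1 were not called, although SOX3 was called at 0.42 without hPSC replicate 1, at 0.58 over shared transcripts and at 0.81 in the corrected fit.

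Several genes of the eye field had a row in the ectoderm table only. RAX stood at 261, 283 and 269 CPM, PAX6 at 204, 209 and 216 CPM, SIX3 at 187, 190 and 216 CPM and LHX2 at 148, 153 and 152 CPM. All 4 are transcription factor genes of the early eye field and forebrain, and their 3 ectoderm libraries were close together. The dorsal neural marker ZIC1 was below 0.5 CPM in each. SOX1, FEZF2, POU3F2 and HES5 had no row in either table, so nothing is said of them. A gene without a row in the hPSC table has no hPSC level here, and no fold is given.

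The gene with the highest level among protein coding genes of the ectoderm table only was DLK1, a non-canonical Notch ligand, at 4094, 4405 and 4390 CPM. DLK1 belongs to an imprinted domain on chromosome 14 that also holds the noncoding RNA MEG3. MEG3 had rows in both tables and stood at 1.61, 1.29 and 0.506 CPM in hPSC against 66.4, 80.9 and 79.6 CPM in ectoderm (log2 change 6.15, SE 0.27, edgeR adjusted p = 5.9e-08). Neighbouring MEG8 had no count in hPSC and was too low in ectoderm to be tested.

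Structural genes of neural cells were mixed. Of 16 tested, 9 rose and 6 fell (median 0.45). MAP2, the dendritic microtubule protein, went from 2.96, 3.03 and 3.83 CPM to 306, 286 and 275 CPM (log2 change 6.44, SE 0.15). N-cadherin (CDH2) rose by 3.16 (SE 0.23), the radial glia lipid carrier FABP7 by 3.20 (SE 0.23) and the progenitor filament gene NES by 0.82 (SE 0.12). The neuronal tubulin gene TUBB3 fell instead, from 169, 171 and 176 CPM to 30.6, 34.4 and 34.3 CPM (log2 change -2.38, SE 0.11), and CRMP1 and GAP43, genes of growing axons, fell by 1.99 and 1.97. The neuronal genes STMN2 and DCX were too low to be tested.

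Regulators of mesoderm and endoderm were low, while the summed level of neural crest and surface ectoderm genes was higher in ectoderm than in hPSC. Of the 22 regulators of mesoderm and endoderm, 16 had no row in either table, among them TBXT, EOMES, SOX17 and GATA6. Of the 3 tested, KDR fell by 4.67 (SE 0.27), and TBX6 and PDGFRA were not called. The summed level of the list was 9.06 to 10.8 CPM in ectoderm and 37.5 to 41.9 CPM in hPSC. Of 8 genes of neural crest and surface ectoderm tested, 6 rose and 2 fell (median 0.87), and 11 more had a row in the ectoderm table only. The summed level of that list was 1694 to 1816 CPM in ectoderm and 1111 to 1264 CPM in hPSC, counting genes listed in a single table in that cell type alone. Most of it came from KRT8, KRT18 and KRT19, with means of 833, 354 and 312 CPM in ectoderm and 432, 460 and 180 CPM in hPSC. The surface ectoderm factor GRHL3 stood at 59.0, 63.1 and 56.3 CPM, the neural crest factor SOX10 at 26.2, 33.2 and 30.6 CPM, and TFAP2A at 3.16, 3.91 and 3.38 CPM. Keratin genes split: KRT8 and KRT19 rose by 0.95 and 0.80, and KRT18 and KRT7 fell by 0.38 and 3.03, with KRT18 at 0.09 in the corrected fit and not called without ectoderm replicate 3 (-0.37) or hPSC replicate 2 (-0.33). The part of such cells in the other results was not tested.

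**Figure D2:**
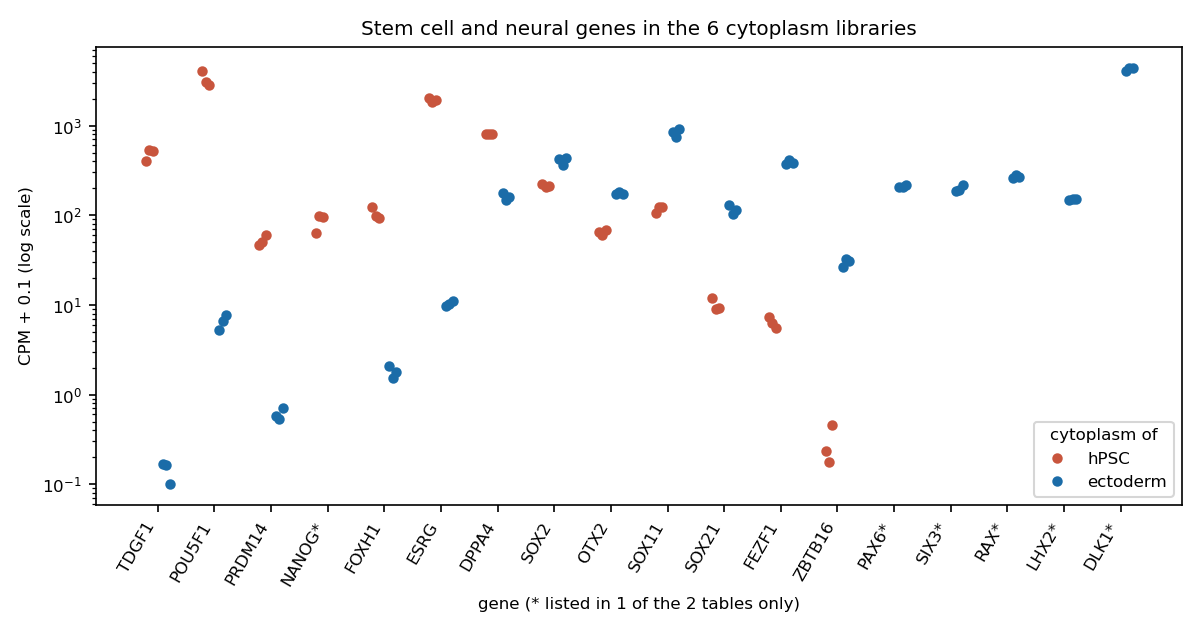
CPM plus 0.1 in each library (points, log axis) of stem cell and neural genes (horizontal axis), with hPSC and ectoderm in separate colours and 3 libraries in each, and an asterisk for genes listed in a single table. POU5F1 stands at 2825 to 4012 CPM in hPSC and 5.08 to 7.69 CPM in ectoderm, and FEZF1 at 5.42 to 7.26 CPM in hPSC and 372 to 410 CPM in ectoderm.

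In the nodal pathway the co-receptor and target genes fell and the receptor and SMAD genes rose. Nodal signals through activin receptors, with TDGF1 as co-receptor, to SMAD2 and SMAD3, which bind DNA with SMAD4 and FOXH1. Of 17 genes of nodal and TGF-beta signalling tested, 8 rose and 6 fell (median 0.38). The ligand gene NODAL had a row in the hPSC table only, at 2.83, 2.12 and 1.52 CPM. Besides TDGF1 and FOXH1, the genes that fell included the feedback genes SKIL and SMAD7 and the ligand gene TGFB1. SKIL, a corepressor induced by the pathway, went from 88.3, 82.5 and 72.9 CPM to 16.96, 10.5 and 12.9 CPM (log2 change -2.60, SE 0.18, edgeR adjusted p = 8.7e-07), with no overlap. The receptor genes TGFBR1, ACVR2B and ACVR1B rose by 1.13, 0.76 and 0.38, and SMAD2, SMAD3 and SMAD4 by 1.13, 1.22 and 0.52. In the fit corrected for length and GC content, 5 of the 17 rose and 9 fell, and SMAD2, SMAD4 and ACVR2B stood at -0.47, -0.29 and -0.11. The call of ACVR1B was lost without any one ectoderm replicate or without hPSC replicate 2 (0.34 to 0.40). That fit called 36.3% of all genes higher and 39.1% lower. TGFB2 had no count in hPSC and was at least 5.99-fold higher in ectoderm, at 1.92, 1.30 and 1.85 CPM.

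BMP target genes did not move together. ID1, ID2 and ID3 are induced by BMP through SMAD1 and SMAD5. ID1 stood at 276, 186 and 179 CPM in hPSC and 204, 218 and 190 CPM in ectoderm and was not called (log2 change -0.06, SE 0.17, edgeR adjusted p = 0.74). In the corrected fit it stood at 0.63 and was called. ID2 was not called either (-0.32), ID3 fell by 0.79 (SE 0.23) but was not called without ectoderm replicate 1 (-0.72) or in the corrected fit (-0.09), and ID4, which neural progenitors express, rose by 2.03 (SE 0.13). BAMBI, a decoy receptor, fell by 2.34 (SE 0.27). The ligand gene BMP4 rose from 4.57, 3.18 and 2.74 CPM to 35.9, 39.2 and 38.6 CPM (log2 change 3.48, SE 0.19). In all, 7 of 14 BMP genes rose and 2 fell (median 0.56), and 9 more, with BMP2 the highest at 15.1, 12.3 and 14.3 CPM, had a row in the ectoderm table only.

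The WNT receptor genes FZD2, FZD3 and FZD5 and the secreted antagonist gene FRZB rose, and other WNT genes moved both ways. Of 25 WNT genes tested, 12 rose and 6 fell (median 0.60). FZD5, a frizzled receptor of the eye field, went from 20.9, 28.4 and 29.7 CPM to 560, 461 and 476 CPM (log2 change 4.24, SE 0.17, edgeR adjusted p = 3.9e-08). FZD2 and FZD3 rose by 4.13 and 3.29, the WNT carrier WLS by 5.69 and the R-spondin receptor LGR4 by 2.75. Among the secreted antagonists, FRZB rose by 5.20 (SE 0.14), SFRP1 by 0.60 and SFRP2 by 0.66, while DKK3 fell by 0.79. AXIN2 went from 26.0, 27.2 and 30.0 CPM to 17.5, 20.0 and 18.4 CPM (log2 change -0.58, SE 0.13). Over transcripts with the same identifier AXIN2 and DKK3 stood on the other side of 0 (0.20 and 0.32). Beta-catenin itself (CTNNB1) was not called (0.20, SE 0.23). In the nucleus 9 of the 25 WNT genes rose and 9 fell (median -0.06), where 31.5% of all genes rose and 32.4% fell.

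Genes of FGF signalling moved both ways. Of 21 genes tested, 8 rose and 10 fell (median -0.15), and the summed level of the list was 1250 to 1252 CPM in ectoderm and 1365 to 1458 CPM in hPSC. The ligand genes FGF2 and FGF19 fell by 1.40 (SE 0.16) and 4.202 (SE 0.33), and FGF8, a signal of the anterior neural ridge, had a row in the ectoderm table only at 41.8, 48.4 and 48.7 CPM. The receptor gene FGFR2 fell by 1.52, FGFR1 was not called (-0.15, but called at -0.51 in the corrected fit), and FGFR3 was in the ectoderm table only. The feedback gene SPRY4 fell from 88.0, 98.4 and 106 CPM to 7.14, 8.88 and 10.0 CPM (log2 change -3.48, SE 0.15), whereas DUSP6, ETV5 and DUSP4 rose by 0.61, 0.80 and 2.01.

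Most Notch genes tested rose. Notch is a receptor cleaved after contact with a ligand on a neighbouring cell, and in the neural plate it holds progenitors undifferentiated. Of 18 genes tested, 12 rose and 2 fell (median 1.25), where 36.7% of all genes rose. DLL1, a ligand gene, went from 1.35, 3.33 and 2.53 CPM to 186, 166 and 169 CPM (log2 change 6.10, SE 0.22, edgeR adjusted p = 2.1e-08), and the ligand gene JAG1 rose by 2.77 (SE 0.16). The receptor genes NOTCH1, NOTCH2 and NOTCH3 rose by 1.68, 2.92 and 1.44. The fringe genes LFNG and MFNG, whose enzymes glycosylate the receptor, rose by 2.61 and 2.90. Of the target genes, HES4 rose from 3.90, 3.64 and 2.53 CPM to 177, 190 and 205 CPM (log2 change 5.85, SE 0.17), and HES1 rose by 1.06, while HEY2 fell by 4.31 (SE 0.26). In the nucleus 10 of the 18 Notch genes rose and 4 fell (median 0.46), where 31.5% of all genes rose and 32.4% fell.

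In the hedgehog pathway, the ligand-binding co-receptors rose and the target GLI1 fell. GAS1, CDON and BOC rose by 4.08, 3.12 and 2.67, and GLI3, the main repressor form of the pathway's transcription factors, by 2.56 (SE 0.12). GLI1, whose transcription reports hedgehog activity, went from 23.9, 20.7 and 22.03 CPM to 0.206, 0.559 and 0.491 CPM (log2 change -5.67, SE 0.26, edgeR adjusted p = 7.7e-08). Of 8 genes tested, 5 rose and 1 fell. Without hPSC replicate 1, 5 rose and 2 fell, where 38.9% of all genes rose and 37.8% fell. The ligand genes SHH and IHH had no row in either table. In retinoid metabolism 4 of 12 genes rose and 5 fell. CYP26A1, which degrades retinoic acid and is induced by it, fell by 5.38 (SE 0.26), DHRS3, a retinaldehyde reductase gene, fell by 3.26 (SE 0.27) but stood at -0.34 and was not called over shared transcripts, and the binding protein gene CRABP2 rose by 1.83 (SE 0.15).

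**Figure D3:**
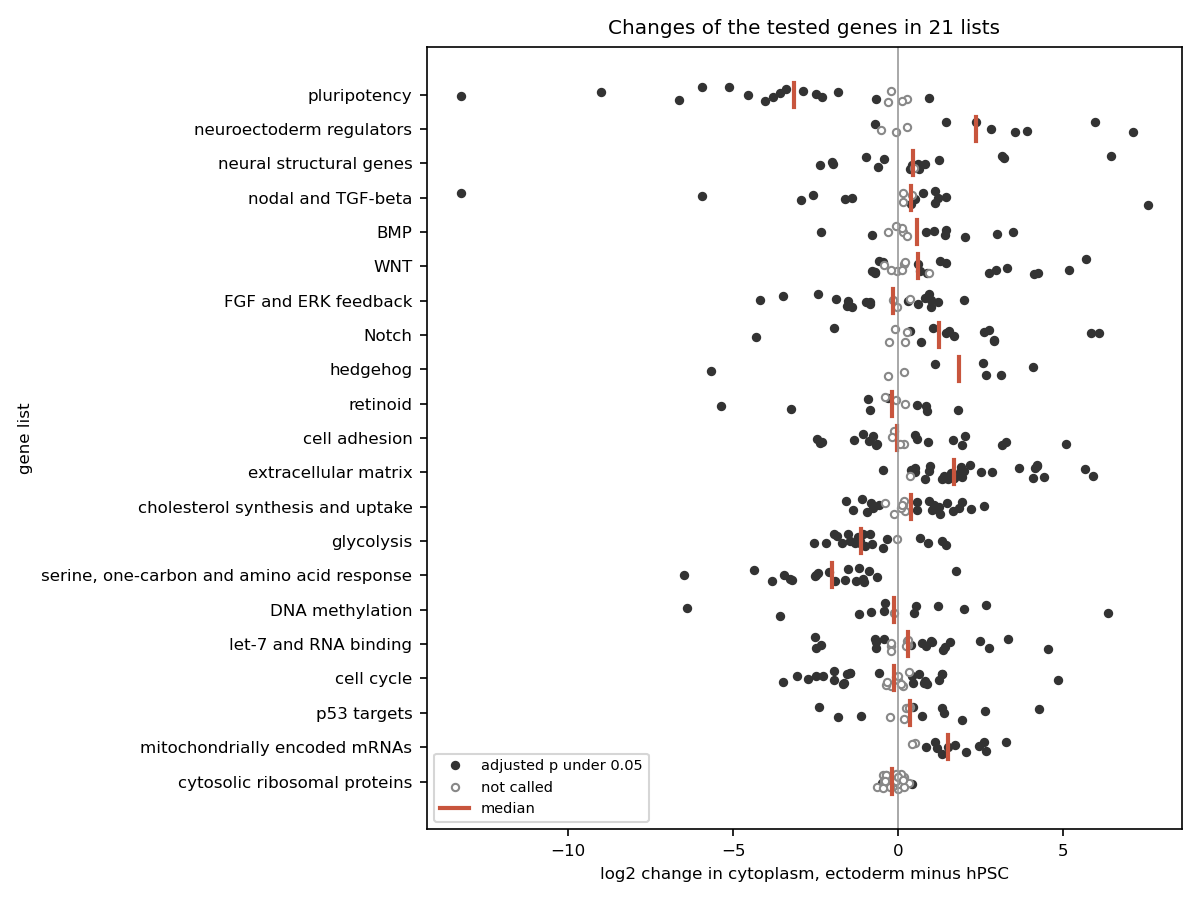
Log2 change of ectoderm over hPSC (horizontal axis) of every tested gene in 21 gene lists (rows), with filled points for called genes and a bar at the list's median. The pluripotency median lies at -3.15 and that of the matrix list at 1.70. The extreme points of TDGF1 and TGFB2 depend on the prior count of the fit, since these genes had 2 counts and no count in their low group.

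Nearly every matrix gene rose in the cytoplasm. Of 31 genes for collagens, laminins and other matrix proteins, 29 rose and 1 fell (median 1.70), where 36.7% and 36.5% of all genes did so. COL2A1, a fibrillar collagen of the notochord and early neural epithelium, went from 2.69, 3.33 and 2.74 CPM to 187, 172 and 175 CPM (log2 change 5.91, SE 0.14, edgeR adjusted p = 4.9e-09). LAMB1, a basement membrane laminin chain, went from 11.3, 17.4 and 17.5 CPM to 307, 282 and 277 CPM (log2 change 4.21, SE 0.17). The fibrillin gene FBN2 and the glypican gene GPC3 rose by 5.66 and 4.16, the basement membrane collagen genes COL4A1, COL4A2, COL4A5 and COL4A6 by 1.32 to 3.66, and SPARC by 1.64. On the deposited TPM values COL4A1 stood at -3.98 instead. GPC4 was the gene that fell (-0.45, SE 0.17), its groups overlapped, and it was not called without ectoderm replicate 1 or 2 or hPSC replicate 2 or 3 (-0.50 to -0.32).

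These genes are long, and their values depended on the fraction and on the correction. The median length of their longest transcripts was 6727 bases against 3572 over all tested genes. In the corrected fit, which called 75.4% of all genes, 25 of 31 rose and 2 fell (median 1.36). In the nucleus 12 rose and 10 fell (median -0.18), where 63.9% of 13049 genes were called, 31.5% higher and 32.4% lower. LAMB1 changed by 1.41 in the nucleus and COL2A1 by 4.57, and SPARC stood at 0.04 there against 1.64 in cytoplasm. The difference between the fractions was not tested. Of 30 tested against the other germ layers, 17 were higher and 9 lower than in endoderm, where 72.1% of genes were called (34.0% higher, 38.0% lower). Against mesoderm 13 were higher and 8 lower, where 61.3% were called (28.8% higher, 32.5% lower). FN1, the fibronectin gene, was 20.1 CPM in hPSC and 29.3 CPM in ectoderm on the scale of the 4 cell types, and 1144 CPM in endoderm and 1268 CPM in mesoderm.

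In the cytoplasm cell adhesion genes moved both ways, 9 up and 9 down of 22 (median -0.02). E-cadherin (CDH1) stood at 58.8, 68.4 and 86.5 CPM in hPSC and at 73.0, 59.2 and 65.8 CPM in ectoderm and was not called (log2 change -0.11, SE 0.15), and the groups overlapped. In the corrected fit it was called at -0.34. EPCAM, an epithelial adhesion molecule, was not called in cytoplasm (-0.20) and fell by 2.92 in the nucleus. CDH11 and the tight junction gene CLDN4 rose by 5.09 (SE 0.18) and 3.26 (SE 0.12). The pluripotent surface markers PODXL, THY1 and CD9 fell by 4.05, 2.46 and 2.31. In the nucleus 6 of 23 adhesion genes rose and 14 fell (median -0.99), where 31.5% of all genes rose and 32.4% fell.

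DNMT3B, one of the enzymes that methylate DNA anew, fell as a gene and differed in the transcript it was assigned to. The gene (chromosome 20, plus strand) stood at 1673, 1793 and 2141 CPM in hPSC and at 151, 172 and 145 CPM in ectoderm (log2 change -3.58, SE 0.16, edgeR adjusted p = 7.7e-08). In hPSC nearly all of it was ENST00000328111, the full-length form, at 1559, 1717 and 2032 CPM, and that transcript was at 0 in all 3 ectoderm libraries. The ectoderm libraries gave 68.3, 82.6 and 66.3 CPM to ENST00000348286 instead. The hPSC table has no row for ENST00000348286, so reads of it could only be counted there under another transcript, and the share of the forms cannot be compared between the cell types from these tables. In GENCODE 29 the full-length form has 23 exons and 853 codons, and the other has 20 exons and 770 codons. The 3 exons that the shorter form lacks are shown because they separate the forms, and exons 21 and 22 lie in the region coding for the catalytic domain. Their positions on GRCh38 are chr20:32793536-32793595 (exon 10), chr20:32805338-32805407 (exon 21) and chr20:32806209-32806327 (exon 22), and the letters are given 5′ to 3′ in lower case, with nothing marked.
DNMT3B exon 10: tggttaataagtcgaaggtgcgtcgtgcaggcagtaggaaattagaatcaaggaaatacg
DNMT3B exon 21: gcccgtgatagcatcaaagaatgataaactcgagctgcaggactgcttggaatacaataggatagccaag
DNMT3B exon 22: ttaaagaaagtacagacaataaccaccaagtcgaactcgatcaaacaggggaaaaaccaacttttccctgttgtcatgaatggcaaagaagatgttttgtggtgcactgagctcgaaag

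The other genes of DNA methylation moved both ways, and APOBEC3B and TET2 changed more than DNMT3B. DNMT3A and the maintenance genes DNMT1 and UHRF1 fell by 0.81, 0.42 and 1.18. TET2, an enzyme that oxidises methylated cytosine, had 3 counts in hPSC and stood at 8.79, 8.69 and 6.16 CPM in ectoderm, a ratio of 90.6 to those counts over the pooled hPSC libraries, with a 95% counting interval from 31.0 to 439. TET1 rose by 0.47 and TET3 was not called, and in the corrected fit TET1 and TET3 were called lower, at -0.38 and -0.88. The calls were lost for TET1 without ectoderm replicate 1 (0.33) or hPSC replicate 2 (0.44), and for DNMT1 without ectoderm replicate 1 or 3 or hPSC replicate 2 or 3 (-0.40 to -0.34). APOBEC3B, a cytosine deaminase of primate cells, went from 39.1, 37.3 and 34.2 CPM to 0.343, 0.248 and 0.654 CPM (log2 change -6.40, SE 0.25). Of the 13 genes, 6 rose and 6 fell.

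Genes of serine and one-carbon metabolism and of the amino acid response fell almost without exception. Cells short of amino acids make more ATF4, a transcription factor that turns on amino acid synthesis, uptake and charging. Of 20 such genes tested, 19 fell and 1 rose (median -1.996), where 36.5% of all genes fell. ASNS, asparagine synthetase, went from 341, 292 and 266 CPM to 26.6, 27.2 and 27.9 CPM (log2 change -3.46, SE 0.13, edgeR adjusted p = 3.2e-08). CHAC1, a glutathione-degrading target of ATF4, went from 146, 98.1 and 81.8 CPM to 1.30, 1.37 and 0.927 CPM (log2 change -6.50, SE 0.28). TRIB3 and ATF5, further ATF4 targets, changed by -3.83 and -4.37, although ATF5 stood at 1.68 over transcripts with the same identifier, and the transporter gene SLC7A5 fell by 3.29. The serine pathway genes PHGDH, PSAT1 and PSPH fell by 1.52, 2.41 and 2.50, and the mitochondrial folate genes MTHFD2, SHMT2 and MTHFD1L by 3.21, 2.51 and 1.91. ATF4 itself went from 594, 463 and 413 CPM to 213, 230 and 267 CPM (log2 change -1.05, SE 0.16).

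The exception was SLC7A11, the cystine transporter, at 6.46, 9.92 and 10.6 CPM in hPSC and 40.3, 26.8 and 25.0 CPM in ectoderm (log2 change 1.74, SE 0.23, edgeR adjusted p = 8.6e-05). In the nucleus it was at -1.39, and over shared transcripts at -2.49. The list as a whole held in the other fits: 19 fell after correction for length and GC content, 18 of 20 fell in the nucleus (median -1.67), 16 of 18 were lower than in endoderm and 16 lower than in mesoderm. The hPSC medium and the ectoderm medium differ in their make-up, and the labels give non-essential amino acids as an addition for ectoderm. Their part in these values was not tested.

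The letters TGATGNAA, the core of the element that ATF4 binds, were searched on both strands in the 250 bases before each RefSeq gene start (GRCh38.p14). They were present in 1104 of 35116 such windows (3.14%) and in 5 of the 30 windows of the 17 listed genes that had an entry. The listed genes with a match were ASNS, CHAC1, ATF3 and MTHFD1L. All 17 genes with an entry had fallen, so genes with and without a match cannot be set against each other. Windows of the pair with large falls are shown 5′ to 3′ on the gene's strand, with the match in capitals: chr7:97872409-97872508 (minus strand) for ASNS, whose match begins 68 bases before the start, and chr15:40953251-40953470 (plus strand) for CHAC1, whose match is on the other strand, 209 bases before the start. A match is a description of the letters, not a measured binding site.
ASNS: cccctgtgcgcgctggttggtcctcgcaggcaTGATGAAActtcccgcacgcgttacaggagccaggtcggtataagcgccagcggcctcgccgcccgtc
CHAC1: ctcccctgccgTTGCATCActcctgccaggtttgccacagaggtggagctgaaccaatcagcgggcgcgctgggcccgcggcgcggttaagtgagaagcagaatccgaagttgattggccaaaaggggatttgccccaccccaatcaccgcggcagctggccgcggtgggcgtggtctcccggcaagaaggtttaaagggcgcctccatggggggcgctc

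Most glycolysis genes fell in the cytoplasm. Pluripotent cells are known for a high rate of glycolysis. Of 22 genes tested, 17 fell and 4 rose (median -1.11), and their summed level was 11296 to 12330 CPM in ectoderm against 23016 to 24278 CPM in hPSC. LDHA, lactate dehydrogenase, went from 1235, 1218 and 1214 CPM to 376, 385 and 374 CPM (log2 change -1.69, SE 0.12, edgeR adjusted p = 1.1e-06). HK2 and PDK1 fell by 2.19 and 1.95, and GAPDH, the gene with the largest loss in CPM, by 1.01 (SE 0.17). The glucose transporter genes SLC2A3 and SLC2A1 rose by 1.44 and 0.91. In the nucleus 6 fell and 2 rose (median -0.04), where 32.4% of all genes fell and 31.5% rose. LDHA stood at -0.28 and GAPDH at 0.46 there. The difference between the fractions was not tested. After correction for length and GC content 17 still fell in the cytoplasm (median -0.78), where 39.1% of all genes fell.

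TXNIP, which restrains glucose uptake and binds thioredoxin, was among the genes that gained most in CPM. It went from 111, 106 and 105 CPM to 996, 928 and 947 CPM (log2 change 3.16, SE 0.12, edgeR adjusted p = 3.4e-08). TPM1, a tropomyosin of actin filaments, went from 468, 439 and 430 CPM to 1682, 1746 and 1740 CPM (log2 change 1.95, SE 0.13), and the elongation factor gene EEF1G rose by 0.66. On the other side stood CD24, a surface glycoprotein, which went from 2386, 2690 and 2616 CPM to 416, 336 and 377 CPM (log2 change -2.77, SE 0.16). Among the largest rises by fold were LSAMP, a neural adhesion molecule (6.92, SE 0.22), HAPLN1, which links hyaluronan to proteoglycans (6.99, SE 0.45), and PRSS23 and PAMR1 (5.81 and 5.58). PRTG, a surface receptor of the early neural tube, and IGFBP5, which binds insulin-like growth factors, had a row in the ectoderm table only, at 498, 275 and 315 CPM and at 317, 314 and 286 CPM.

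Cell cycle genes moved both ways. Of 32 tested, 10 rose and 13 fell (median -0.13), a split close to that of all genes. The 6 subunits of the replicative helicase, MCM2 to MCM7, fell by 1.46 to 2.75, and PCNA, the polymerase clamp, went from 430, 348 and 332 CPM to 78.9, 75.4 and 75.0 CPM (log2 change -2.27, SE 0.13, edgeR adjusted p = 2.8e-07). Cyclin E genes CCNE1 and CCNE2 fell by 3.06 and 3.48, and E2F1, which drives many such genes, by 2.50 (SE 0.14). The mitotic cyclin gene CCNB1 stood at 276, 248 and 237 CPM in hPSC and 224, 214 and 223 CPM in ectoderm and was not called (log2 change -0.20, SE 0.11). CCNA2, PLK1, CDC20, BUB1, AURKA and AURKB were not called (AURKB was, at -0.41, without hPSC replicate 3). After correction for length and GC content CDC20, AURKA and AURKB were called higher, at 0.55, 0.43 and 0.32. TOP2A rose by 1.25 and MKI67 by 0.78, the latter at -0.10 after correction for length and GC content. Of the cell cycle inhibitors, CDKN1C rose from 1.88, 0.909 and 1.23 CPM to 33.3, 29.8 and 47.0 CPM (log2 change 4.85, SE 0.28), and CDKN1A and CDKN1B rose by 1.33 and 0.87. MYC and MYCN, growth regulators, fell by 2.50 and 2.52.

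**Figure D4:**
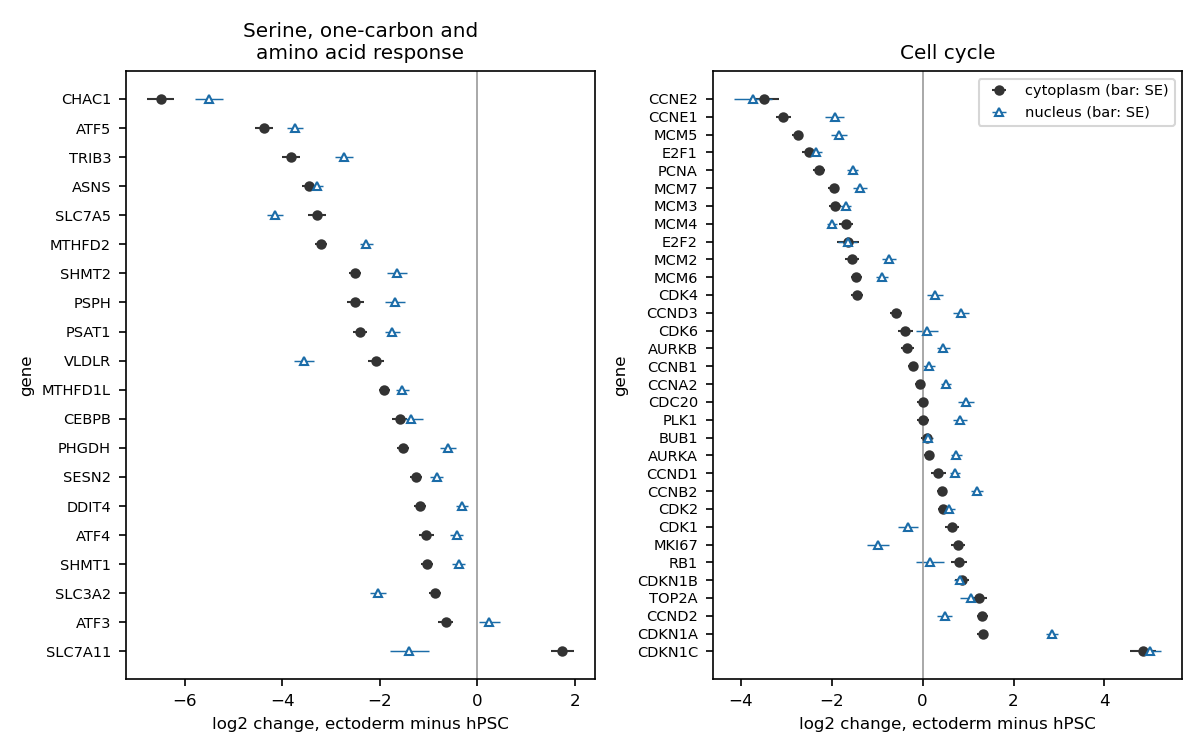
Log2 change of ectoderm over hPSC (horizontal axis, bars for the SE) of each tested gene of the amino acid response list (left) and the cell cycle list (right), in cytoplasm (filled points) and nucleus (open triangles), n = 3 libraries a group. Of the amino acid response genes in cytoplasm, SLC7A11 alone lies right of 0, and the cell cycle list runs from CCNE2 at -3.48 to CDKN1C at 4.85.

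E2F factors bind the letters TTTCCCGC or TTTGGCGC, which were searched on both strands of the same windows. They were in 677 of 35116 windows (1.93%) and in 6 of the 32 windows of the 24 cell cycle genes with an entry. The 6 genes were E2F1, E2F2, MCM3, MCM6, MCM7 and PCNA. All 6 were among the 10 genes with an entry that fell, and none of the other 14 had a match. The list was chosen with earlier results of these data known, so these counts only describe it. A match is not a measured binding site, and the part of E2F factors in these falls was not tested. The windows of MCM6 (chr2:135876444-135876603, minus strand), which holds the letters in 2 places, and E2F1 (chr20:33686386-33686485, minus strand) are shown with the matches in capitals.
MCM6: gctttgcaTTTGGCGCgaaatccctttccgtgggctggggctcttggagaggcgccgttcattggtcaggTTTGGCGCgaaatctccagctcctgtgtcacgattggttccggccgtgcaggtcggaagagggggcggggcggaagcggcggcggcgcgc
E2F1: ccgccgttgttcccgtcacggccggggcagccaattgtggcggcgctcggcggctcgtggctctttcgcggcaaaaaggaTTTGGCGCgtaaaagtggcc

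Some p53 target genes rose with CDKN1A. ZMAT3, a regulator of splicing, went from 4.44, 4.09 and 4.62 CPM to 97.3, 78.5 and 76.8 CPM (log2 change 4.26, SE 0.16, edgeR adjusted p = 2.6e-08), and BTG2, which slows proliferation, rose by 2.63 (SE 0.11). BAX and TP53I3 fell by 1.83 and 2.40, and MDM2 was not called (-0.26). MDM2 was called lower without hPSC replicate 1 (-0.44), after correction for length and GC content (-1.23) and over its shared transcript (-6.13). In all, 7 of 15 rose and 3 fell, and 5 fell in the corrected fit, which called 39.1% of all genes lower. Without hPSC replicate 1, 9 rose and 4 fell, where 38.9% of all genes rose and 37.8% fell. In cholesterol synthesis and uptake, 14 of 28 genes rose and 7 fell (median 0.39): INSIG1 rose by 2.62 and MSMO1 by 2.21. Against endoderm the same list gave 5 higher and 15 lower, and against mesoderm 2 higher and 14 lower. Of all genes, 34.0% were higher and 38.0% lower against endoderm, and 28.8% and 32.5% against mesoderm.

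Genes of RNA-binding proteins in early development moved both ways. Of 26 genes on the let-7 axis and of splicing control, 12 rose and 7 fell (median 0.30), and in the corrected fit 8 rose and 10 fell (median -0.09). MSI1, a translational regulator of neural progenitors, went from 33.6, 36.0 and 41.1 CPM to 187, 215 and 217 CPM (log2 change 2.48, SE 0.13, edgeR adjusted p = 1.4e-07). NOVA1, a neuronal splicing factor, rose by 3.35 (SE 0.17), and ESRP2, an epithelial one, fell by 2.33 (SE 0.13). TRIM71, a let-7 target, fell by 0.69, and stood at 0.41 over shared transcripts and at 1.01 on the deposited TPM values.

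Some RNAs known as nuclear were higher in the ectoderm cytoplasm. MALAT1 stood at 265, 286 and 227 CPM in hPSC and at 2135, 1244 and 1703 CPM in ectoderm (log2 change 2.71, SE 0.21, edgeR adjusted p = 2.1e-06), and NEAT1 rose by 3.40 (SE 0.18). In the nucleus NEAT1 rose by 2.14, and MALAT1 was not called (1.04, SE 0.52, edgeR adjusted p = 0.11). The mean level of MALAT1 in the nuclear libraries was 82.0 CPM in hPSC and 169 CPM in ectoderm, below its means of 259 and 1694 CPM in the libraries labelled cytoplasm. NEAT1 likewise had 1.23 and 5.48 CPM in the nucleus and 3.65 and 38.3 CPM in cytoplasm. CPM is relative to each library's own total, and the fractions were not tested against each other. SNHG14 and PVT1, other noncoding RNAs of the list, fell by 1.75 and 1.19, and of 8 tested 5 rose and 2 fell. Among long noncoding RNAs as a class, 328 of 749 rose and 226 fell (median 0.30). Whether more nuclear RNA reached the cytoplasm fraction of ectoderm was not tested.

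Most mitochondrially encoded mRNAs rose in the ectoderm cytoplasm. The 13 mRNAs summed to 6044, 3448 and 4507 CPM in hPSC and 10809, 8792 and 13257 CPM in ectoderm. All RNAs of the mitochondrial genome, ribosomal RNA included, were set against the counts in rows with an Ensembl gene. They took 1.32% ± 0.28 (SD, n = 3) of these in ectoderm and 0.546% ± 0.094 (SD, n = 3) in hPSC. The exact permutation test gave p = 0.1, the smallest that 3 against 3 allows. Of the 13 mRNAs 11 rose and none fell, with MT-CO1, a subunit of cytochrome oxidase, at 2185, 1251 and 1620 CPM in hPSC and 5188, 3973 and 5365 CPM in ectoderm (log2 change 1.52, SE 0.23, edgeR adjusted p = 1.9e-04). MT-CYB and MT-CO3 were not called, but were without hPSC replicate 1 (0.69 and 0.83) and after correction for length and GC content (0.98 and 1.01). Among the 11, the groups overlapped for MT-ND3, whose call was lost without ectoderm replicate 3 (0.53) or hPSC replicate 2 (1.47) or 3 (1.59). In the nucleus none rose and 2 fell, where 31.5% of all genes rose and 32.4% fell. The mean level of MT-CO1 in the nuclear libraries was 40417 CPM in hPSC and 38229 CPM in ectoderm. Its means in cytoplasm were 1685 and 4842 CPM. The ribosomal RNA MT-RNR2 likewise had 17746 and 11835 CPM in the nucleus and 804 and 2066 CPM in cytoplasm. The fractions were not tested against each other. In cytoplasm all 13 mRNAs were higher in ectoderm than in endoderm, and all 13 were lower than in mesoderm. Of all genes, 34.0% were higher than in endoderm and 32.5% lower than in mesoderm.

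The values of cytosolic ribosomal protein genes rested on a single library. Of 38 tested, 1 rose and 1 fell (median -0.18). Their summed level was 77593, 84039 and 90798 CPM in ectoderm and 124494, 80856 and 72441 CPM in hPSC, where replicate 1 was the highest. Without hPSC replicate 1, 10 rose and 2 fell, where 76.7% of all genes were called (38.9% higher, 37.8% lower), and with all 6 libraries after correction for length and GC content 12 rose and 1 fell. The corrected fit called 36.3% of all genes higher and 39.1% lower. In the nucleus all 38 rose (median 1.52), where 31.5% of all genes rose.

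The ectoderm values were also set beside those of the other germ layers. They come from a joint fit of 10674 genes that had rows in all 4 tables and passed its filter. In it 34.0% of genes were called higher and 38.0% lower in ectoderm than in endoderm. Against mesoderm 28.8% were called higher and 32.5% lower. POU5F1 was at 3412 CPM ± 649 (SD, n = 3) in hPSC and 1812 ± 265 in endoderm, followed by mesoderm (991 ± 83.7) and ectoderm (6.77 ± 1.38), and each neighbour in the order differed by more than either SD. Of 13 BMP genes, 1 was higher and 11 lower in ectoderm than in endoderm (median -1.70), and 2 were higher and 10 lower than in mesoderm (median -1.05). The level of ID1 was 221 CPM for hPSC, 215 for ectoderm, 699 for endoderm and 700 for mesoderm, and that of BAMBI was 14.8, 2.96, 239 and 265 CPM in the same order. ID1 in hPSC and ectoderm did not differ beyond the spread. Notch genes were higher in ectoderm in 7 of 12 against endoderm, with 2 lower, and in 6 of 12 against mesoderm, with 2 lower. Of the 25 genes of neural crest and surface ectoderm, 5 were in that fit and the others were not compared. These 5 were lower in ectoderm than in each layer, keratin KRT8 among them at 877 CPM in ectoderm, 2949 in endoderm and 4330 in mesoderm.

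Several genes that rose from hPSC were highest in ectoderm among the 4 cell types. FZD5 was at 525 CPM ± 54.9 (SD, n = 3) in ectoderm, 38.7 ± 3.37 in mesoderm, 27.3 ± 4.97 in hPSC and 11.3 ± 0.291 in endoderm. NOTCH1 was at 143, 43.8, 29.3 and 1.54 CPM in ectoderm, hPSC, endoderm and mesoderm. GPC3 followed the order ectoderm, mesoderm, endoderm, hPSC, at 494, 107, 61.3 and 27.1 CPM. LAMB1 did not differ between ectoderm and mesoderm beyond the spread (304 ± 16.2 and 275 ± 12.8 CPM, edgeR adjusted p = 0.35), and GAS1 was higher in mesoderm, at 201 CPM against 81.8. ASNS was highest in hPSC at 310 CPM, and lower in endoderm (166), mesoderm (109) and ectoderm (28.7), so its level in ectoderm was the lowest of the 4.

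**Figure D5:**
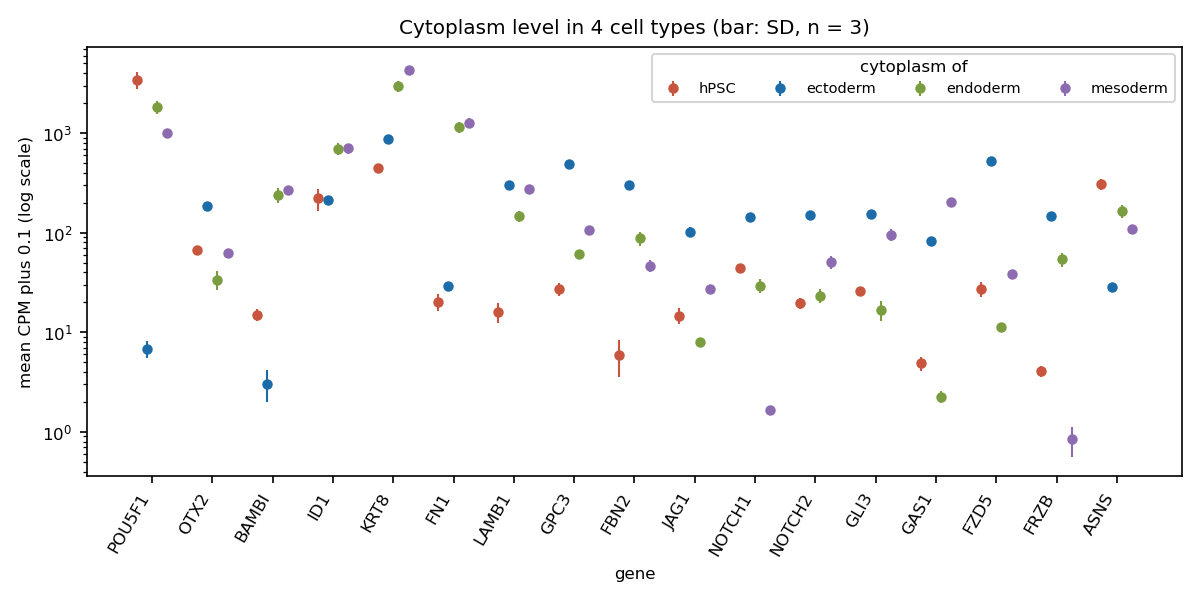
Mean CPM plus 0.1 (log axis, bars for the SD, n = 3 libraries) of the genes on the horizontal axis in the cytoplasm of the 4 cell types. POU5F1 at 6.77 CPM and ASNS at 28.7 CPM are lowest in ectoderm, and FZD5 at 525 CPM is highest there.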

How the data were processed

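RNA of cytoplasm and nucleus of H1 cells was sequenced. Per the submitters' processing notes, RSEM and STAR were used with hg38, and the tool versions, the annotation and the way transcripts were assembled are not given in the sources used here. The authors deposited estimated counts (RSEM's expected counts, rounded to whole numbers) and TPM per transcript, in one table for each cell type with its own set of transcripts. Here counts were summed per Ensembl identifier without its version, the ectoderm and hPSC tables were joined, and gene names, types and positions were taken from GENCODE 29, and promoter windows from RefSeq (GRCh38.p14). Rows without an Ensembl gene, 0.277% to 9.36% of counts in these 6 libraries, were left out.

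The 6 cytoplasm libraries were fitted in edgeR 4.0.16 (R 4.3.3) with TMM scaling and a minimum count of 10 in filterByExpr, and genes were called at an adjusted p below 0.05. The nucleus and the joint fit of 4 cell types were treated the same way. Alternatives were other scalings, no filter, DESeq2 1.42.0, limma 3.58.1 on log2(TPM + 1) of the deposited TPM, shared transcripts only, a replicate block, and each library left out. A lowess correction for length and GC content (span 0.3), and gene list counts over shared transcripts and without hPSC replicate 1, were added after seeing the data. The fit was tested on simulated data. Intervals and floors (3 counts) cover counting error only. Libraries held 8329295 to 18474308 counts, so levels near or below 1 CPM rest on few counts. The genes named outside the lists were taken from the 12 largest rises and falls among called genes that passed a filter. It required a symbol, a mean of at least 20 CPM in the higher group and no overlap between the groups. The sum over shared transcripts had to have the same sign, also without overlap. Genes with larger changes that failed this filter were left out of these sets. Further genes came from the 10 largest gains and losses in CPM among called genes, and the 8 highest genes of each table alone. Not every gene of these sets was named, and other genes were named from 25 lists. Members and lists were chosen with earlier results of these data known. In 1 case a column of values matched no sample and was not used.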

Additional observations from a re-analysis of the deposited data

How the results depend on the processing

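Of 2907 values of the 199 named genes under other settings, 2802 kept their side of the threshold and, where either fit called the gene, their direction. A change of sign where neither fit called the gene was counted as kept. Genes named as the largest rises and falls had to keep their sign over shared transcripts. Their agreement in direction under that setting was therefore set by the choice. The count of 9593 called genes ranged from 8850 to 10107 with one library left out, and was 5569 when a 2-fold change was required. The share of called genes that were higher in ectoderm was 50.1%, and was 54.5% with total counts as the scale, 59.9% on TPM, 51.5% with a 2-fold change and 48.1% after correction for length and GC content. The median change of all genes was 0.0045, and was 0.11 with total counts, 0.20 on TPM, -0.013 over shared transcripts, -0.035 after that correction, and -0.0066 to 0.028 with one library left out. Under the total counts and TPM scales, changes smaller than these shifts have no settled direction. The correction for length and GC content reversed SMAD2 (-0.47), TET1 (-0.38), LIN28B (-0.35), SMAD4 (-0.29), FN1 (-0.28), ACVR2B (-0.11), MKI67 (-0.10), KRT18 (0.086), AURKB (0.32) and ID1 (0.63). Shared transcripts reversed SLC7A11 (-2.49), AXIN2 (0.20), DKK3 (0.32), TRIM71 (0.41) and ATF5 (1.68), and TPM reversed COL4A1 (-3.98), ATF3 (0.071), TRIM71 (1.01) and HESX1 (1.17); the cause was not tested. Shared transcripts also lost the calls of DHRS3 (-0.34), DNMT1 (-0.27), DNMT3A (-0.21), GPC4 (-0.15), ID3 (-0.48), KRT18 (-0.08), SMAD4 (0.13), SMAD7 (-0.51) and ZIC5 (-0.26). They called LIN28B (2.59), MDM2 (-6.13), AURKA (0.43), BUB1 (0.35), SOX3 (0.58) and MT-CYB (0.74), which the joined genes did not. List counts also moved by over 1.5 times under these settings. Over shared transcripts, members that fell numbered 2 of 20 for WNT (6 of 25 in the main result), 4 of 20 for cell adhesion (9 of 22), 2 of 12 for retinoid (5 of 12), 2 of 8 for DNA methylation (6 of 13), 4 of 20 for RNA binding (7 of 26), 1 of 12 for BMP (2 of 14), 1 of 8 for neural crest (2 of 8), 1 of 5 for nuclear-retained RNAs (2 of 8), 0 of 8 for neuroectoderm (1 of 11), and 2 each for hedgehog and cytosolic ribosomal proteins (1 each). Members that rose there numbered 7 for RNA binding (12), 5 of 13 for nodal (8 of 17), 3 for nuclear-retained RNAs (5), 2 of 19 for pluripotency (1 of 20) and 4 of 38 for ribosomal proteins (1 of 38). After correction for length and GC content, 12 of 38 ribosomal protein genes rose (1), as did 5 nodal members (8), and members that fell numbered 5 of 15 for p53 targets (3), 4 of 8 for nuclear-retained RNAs (2), 2 each for hedgehog and extracellular matrix (1 each) and 1 for neural crest (2). Same-numbered ectoderm and hPSC libraries did not deviate together (r = -0.17, 0.098 and -0.36). This does not settle whether the numbers pair them, because deviations from a group mean also follow transcript length and GC content. With the replicate block, the calls were 9095 in cytoplasm, 5724 of shared transcripts (6507 without), 7552 against endoderm, 6307 against mesoderm and 7362 in the nucleus. Library depth limited the genes under about 1 CPM, and genes listed in a single table could not be tested.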
